A study of Homo sapiens with 21 samples.

Results

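The regions described here were those in which DRIP-seq peaks recurred after RNase treatment. Peaks on chromosomes 1 to 22 and X of 6 RNase-treated libraries were merged where they shared at least 1 bp, and 733 of 2641 merged regions held a peak in at least 2 of the 6 libraries. They stand beside 73564 merged regions of the 6 untreated libraries, and 74579 regions were obtained when all 12 peak lists were merged. The peak calls of the treated libraries chose the regions, so recurrence, fold and width with RNase are given as a description.

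All libraries came from MDA-MB-436, an established triple-negative breast cancer line with a mutated BRCA1 gene, which both groups carry. Lentiviral hairpins under doxycycline control targeted RNF8 (shRNF8, called RNF8-KD in the labels) or carried a scrambled sequence (shScr, called WT there). S9.6-enriched DNA from sonicated chromatin gave 4 shRNF8 libraries with RNase, 2 shScr libraries with RNase, 4 shRNF8 libraries without and 2 shScr libraries without. RNA-seq covered 3 shRNF8 and 3 shScr libraries. Doxycycline dose, time of induction and clonal origin are not given in the sources used here, and nothing states that replicates were separate cultures, so p-values measure the spread between these libraries, which may be technical. The kind of RNase is given as a code only.

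An R-loop forms when RNA pairs with the template DNA and displaces the other strand. The S9.6 antibody binds DNA-RNA hybrids, and treatment with an RNase that destroys the hybrid's RNA is the usual negative control of a DRIP experiment. R-loops are known mainly from the starts and ends of active genes with GC-rich sequence. RNF8, which attaches ubiquitin to chromatin around broken DNA, and XRN2, an exonuclease that degrades RNA behind terminating RNA polymerase, are the proteins named in the title of the series.

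RefSeq promoter sequence (GRCh38.p14, 250 bases before to 50 bases after a gene start) overlapped 28 of the 733 regions, at 32 of 34789 promoter windows. Runs of at least 5 G or 5 C (GGGGG or CCCCC, both strands searched) stood in 20 of those 32 windows (62.5%), in 75.9% of the 11455 windows on other S9.6 regions and in 58.4% of all windows. Their median GC content was 63.3%, against 67.0% on other S9.6 regions and 58.7% over all windows. The 250 bases before the start are shown for 3 of the promoters inside regions found in all 6 RNase-treated libraries and for EEF1A1, where a treated library reached 146-fold. The promoters of GADD45GIP1 and DAND5, also on such regions, are not shown and had GC contents of 53.0% and 58.7%. Capitals mark runs of at least 5 G or C, and sequences read 5′ to 3′ in the direction of the gene. TIMM13, a chaperone of mitochondrial import (minus strand, chr19:2427587-2427836), and NFIX, a transcription factor (plus strand, chr19:12995225-12995474), lie in GC-rich sequence, whereas LOC105374862 (plus strand, chr2:89845564-89845813) has a GC content of 48.0% over its 300-base window and no such run. The EEF1A1 stretch (minus strand, chr6:73521033-73521282) holds 2 runs of G.
TIMM13: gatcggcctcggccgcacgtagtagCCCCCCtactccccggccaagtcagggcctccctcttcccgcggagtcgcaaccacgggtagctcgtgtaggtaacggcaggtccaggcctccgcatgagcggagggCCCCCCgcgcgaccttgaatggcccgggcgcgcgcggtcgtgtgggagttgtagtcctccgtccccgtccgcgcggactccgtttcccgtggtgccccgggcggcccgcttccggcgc
NFIX: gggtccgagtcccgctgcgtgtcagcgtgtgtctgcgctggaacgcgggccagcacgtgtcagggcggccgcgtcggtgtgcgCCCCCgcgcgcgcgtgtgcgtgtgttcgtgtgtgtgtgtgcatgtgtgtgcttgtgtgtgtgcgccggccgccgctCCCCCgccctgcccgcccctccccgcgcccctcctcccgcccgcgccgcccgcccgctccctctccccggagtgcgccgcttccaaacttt
LOC105374862: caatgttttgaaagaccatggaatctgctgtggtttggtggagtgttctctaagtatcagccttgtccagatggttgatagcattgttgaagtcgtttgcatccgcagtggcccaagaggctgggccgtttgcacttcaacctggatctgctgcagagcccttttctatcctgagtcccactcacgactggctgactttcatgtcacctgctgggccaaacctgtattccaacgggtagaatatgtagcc
EEF1A1: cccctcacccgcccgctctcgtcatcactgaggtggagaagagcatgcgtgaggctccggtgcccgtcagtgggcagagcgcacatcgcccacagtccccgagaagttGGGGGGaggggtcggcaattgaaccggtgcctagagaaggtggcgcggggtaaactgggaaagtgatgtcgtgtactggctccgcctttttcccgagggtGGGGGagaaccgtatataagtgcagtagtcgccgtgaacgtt

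Facts of the whole series that touch these results are few. RNF8 mRNA averaged 9.08 ± 1.05 CPM in shRNF8 and 28.6 ± 0.586 CPM in shScr cells (SD, n = 3 each; edgeR log2 fold change -1.66 ± 0.13 SE, adjusted p = 0.000165). XRN2 averaged 160 ± 7.46 CPM in shRNF8 and 144 ± 22.1 CPM in shScr cells and was not called (edgeR adjusted p = 0.468). All 5 markers carried by this mesenchymal-like line were present, such as VIM at 1073 CPM in shRNF8 and 962 CPM in shScr cells, while of 7 markers of other cell types ESR1, PGR and PTPRC were at or under 0.0512 CPM in both groups. The other 4, GATA3, FOXA1, PECAM1 and COL1A1, had 0.179 to 3.94 CPM in shRNF8 and 0.594 to 4.81 CPM in shScr cells. RNA libraries held 18121181 to 20006954 counted read pairs. Untreated peak lists on the chromosomes used held 32358 to 50963 peaks and treated lists 254 to 1912, and the read depth behind them is unknown. Libraries shRNF8 3 and 4 stood apart: their untreated lists shared 49.2% of their joint regions with each other and 28.5% to 33.1% with any other untreated library. The pair shRNF8 1 and 2 shared 43.9%, the pair shScr 1 and 2 shared 46.6%, and libraries across those pairs 34.0% to 38.4%. Peak names inside the lists of shRNF8 3 and 4 carry the numbers of shRNF8 1 and 2. The number of regions and the tests on untreated peaks are also given without shRNF8 3 and 4. Positions, clusters and the split of regions by untreated peaks are given with them included.

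Recurrence among the treated libraries was uneven. Of the 733 regions, 369 held a peak in 2 libraries, 133 in 3, 93 in 4, 67 in 5 and 71 in all 6. Peaks lay on 148, 245, 619 and 409 of them in shRNF8 1 to 4, and on 388 and 461 in shScr 1 and 2. The share of a treated list that fell on these regions was 89.4%, 88.3%, 36.9% and 88.7% in shRNF8 1 to 4, and 73.9% and 64.2% in shScr 1 and 2. The third shRNF8 library was thus the one with most of its peaks elsewhere, and it also had the longest list. The median of the regions' mean treated folds was 7.28 and the lowest 4.497. The highest treated fold was under 10 for 502 regions and at least 20 for 39. Widths ran from 264 to 39282 bp with a median of 1143 bp.

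Peaks of both hairpins lay on 443 regions (60.4%), of shRNF8 alone on 218 and of shScr alone on 72. The commonest single combination was shRNF8 3 with shRNF8 4 alone, with 163 regions, followed by shScr 1 with shScr 2 alone, with 72. Of the regions with a peak in shRNF8 4, 98.5% also had one in shRNF8 3, whereas 65.1% of those in shRNF8 3 had one in shRNF8 4. Without both libraries 459 regions met the rule. Hairpin and library list length cannot be told apart in these counts, since the number of libraries and their lists differed.

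**Figure D1:**
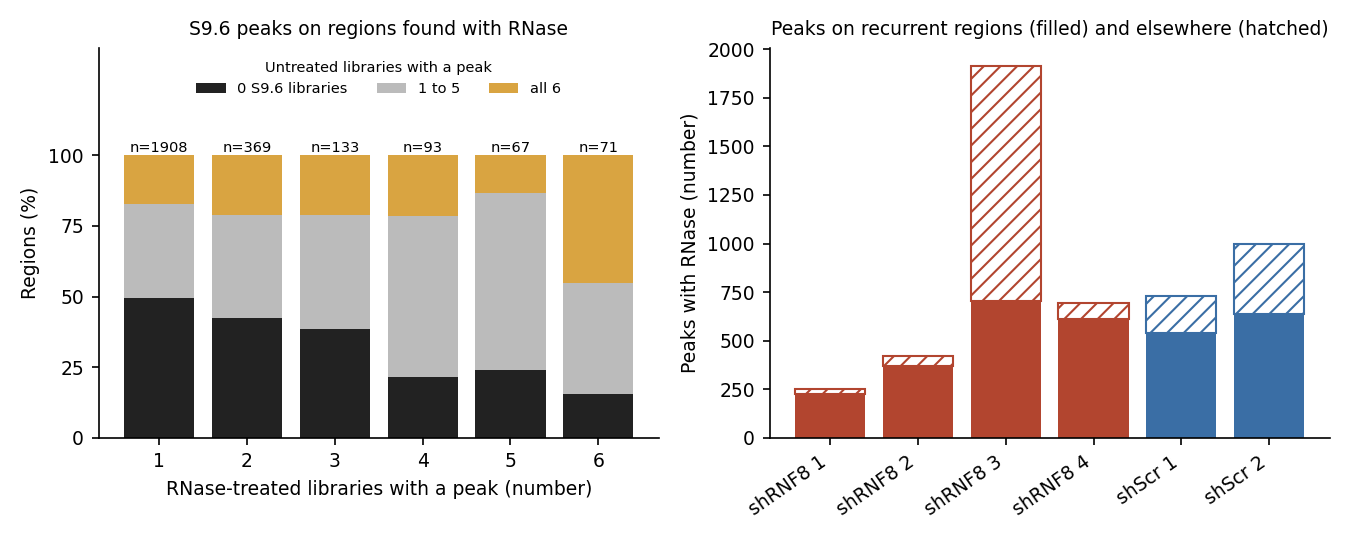
Left, regions found with RNase grouped by the number of treated libraries with a peak (x axis), with the share (%, y axis) that also had a peak in 0, 1 to 5 or all 6 untreated libraries and the number of regions above each bar. Right, peaks per RNase-treated library (number, y axis), filled where they lie on one of the 733 regions and hatched elsewhere. No untreated peak was found on 42.3% of regions with 2 treated libraries and on 15.5% of those with all 6.

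Whether these regions also carried a peak without RNase was read from the untreated libraries, which the rule did not use. A peak was present in all 6 untreated libraries on 167 regions (22.8%) and in none of them on 254 (34.7%). Of the 163 regions of treated shRNF8 3 and 4 alone, 75 (46.0%) had no untreated peak, against 11 (15.5%) of the 71 in all 6 treated libraries. Those 254 regions were called with RNase and in no untreated library, so the calls do not show a peak that persisted there. A missing peak does not show that signal was absent without RNase. In single libraries 42.0%, 43.9%, 43.8% and 41.3% of the regions had an untreated peak in shRNF8 1 to 4, and 48.7% and 36.2% in shScr 1 and 2. The shScr libraries lay on either side of all 4 shRNF8 libraries. The mean was 42.8% ± 1.29 in shRNF8 (SD, n = 4) and 42.4% ± 8.88 in shScr (SD, n = 2), a difference of 0.341 percentage points (two-sided exact permutation test over 15 splits, p = 0.867, smallest possible 0.0667). Leaving out shScr 2 turned the difference to -5.94 percentage points and leaving out shScr 1 gave 6.62, so its direction rested on single libraries. The regions themselves came from 4 treated shRNF8 and 2 treated shScr libraries, 218 through shRNF8 alone and 72 through shScr alone. The test therefore cannot separate the hairpin from how the regions were chosen.

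The most recurrent regions had untreated peaks most often. Among regions found in all 6 treated libraries, an untreated peak was present on 71.8%, 73.2%, 70.4% and 64.8% in shRNF8 1 to 4, and on 74.6% and 54.9% in shScr 1 and 2. Among regions found in exactly 2 treated libraries the shares were 34.7%, 36.9%, 40.7% and 39.0% in shRNF8 1 to 4, and 41.5% and 32.0% in shScr 1 and 2. Regions in 1 treated library, just outside the rule, had 27.3%, 29.6%, 37.6% and 36.4% in shRNF8 1 to 4, and 34.2% and 28.8% in shScr 1 and 2. The order was not even throughout: regions in 5 treated libraries had 32.8% and 31.3% in shRNF8 3 and 4 and 59.7% and 37.3% in shScr 1 and 2. All 4 values lay below those of regions in 4 libraries (48.4% and 47.3% in shRNF8 3 and 4, 60.2% and 45.2% in shScr 1 and 2), and in shRNF8 3 and 4 also below those of regions in 1. The median width was 4221 bp for regions in all 6 and 361 bp for regions in 1 library, and a wider region is touched by a peak more readily; its part in these shares was not tested.

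Where an untreated peak did lie on one of the 733 regions, it was higher than the other peaks of its library. The authors' fold enrichment over local background had a median of 6.33, 6.001, 5.68 and 5.27 on the regions in shRNF8 1 to 4, and 5.83 and 6.16 in shScr 1 and 2. The other peaks of the same libraries had medians of 5.54, 5.13, 4.66 and 4.44 in shRNF8 1 to 4, and 5.03 and 5.31 in shScr 1 and 2. All 6 libraries showed the same direction, and the mean difference was 0.23 ± 0.03 on the log2 scale (SD, n = 6; two-sided exact sign-flip permutation test, p = 0.03125, the smallest this design allows). Without the regions near gene-free stretches, described below, it was 0.30. Height was not particular to recurrence: the median untreated fold per region was 6.97 to 8.23 over the 6 libraries for regions in 1 treated library. It was 7.18 to 8.72 for regions in 2, 5.25 to 7.61 for regions in 3 to 5 and 6.85 to 8.18 for regions in all 6. These values take the highest peak of each region and are not on the scale of the medians per peak above.

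Untreated peaks on the regions were also wider and lay less often at gene starts. Median widths were 700, 736, 1209 and 1093 bp in shRNF8 1 to 4 and 677 and 822 bp in shScr 1 and 2, against 597, 537, 655 and 653 bp in shRNF8 and 518 and 596 bp in shScr for the other peaks. The mean difference in log2 width was 0.53 ± 0.24 (SD, n = 6; exact sign-flip permutation test, p = 0.03125). A wide peak is more likely to touch any region, and that share of the difference was not tested. A summit within 1000 bp of a gene start was found for 3.76%, 4.65%, 4.62% and 5% of the peaks on the regions in shRNF8 1 to 4, and for 3.55% and 4.81% in shScr 1 and 2. For the other peaks it was 16.5%, 15.3%, 11.1% and 10.6% in shRNF8 1 to 4, and 13.6% and 13.4% in shScr 1 and 2. The mean difference was -9.03 ± 2.70 percentage points (SD, n = 6; exact sign-flip permutation test, p = 0.03125), with all 6 libraries in the same direction. Without shRNF8 3 and 4 the differences were 0.22 for log2 fold, 0.38 for log2 width and -11.3 percentage points for gene starts, with an exact p of 0.125 each, the smallest that 4 libraries allow.

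**Figure D2:**
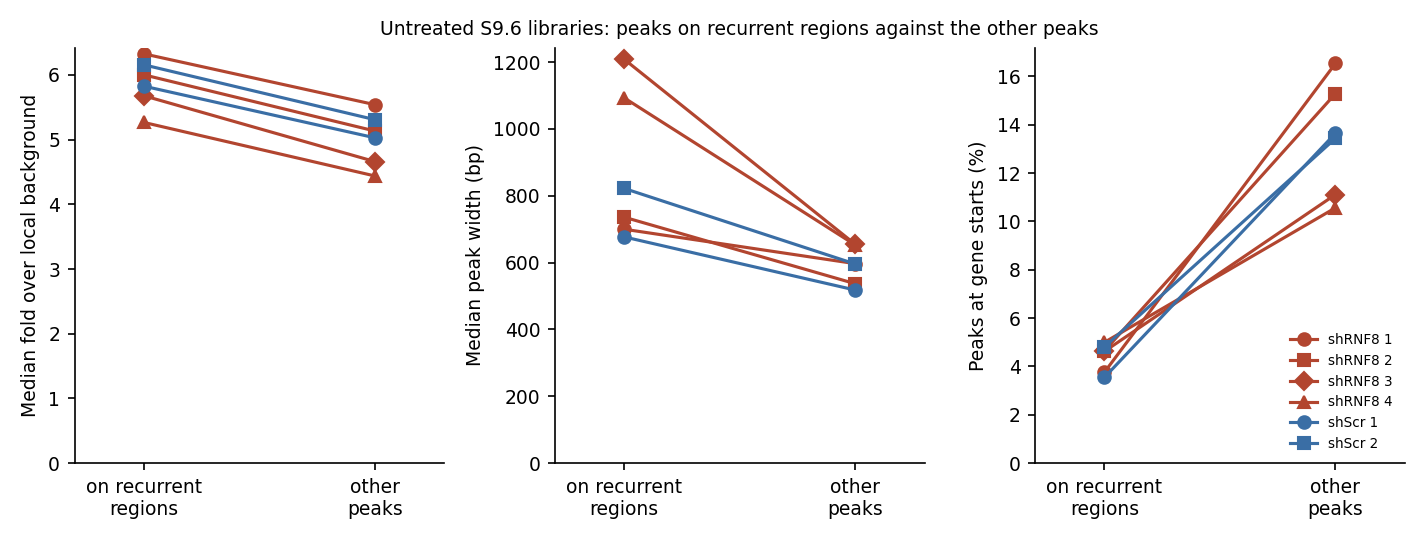
Each line joins, for 1 untreated library (shRNF8 red, shScr blue), the value for peaks on the 733 regions (left) to the value for its other peaks (right), for the median fold over local background, the median width in bp and the share of peaks (%) with a summit within 1000 bp of a gene start. All 6 lines fall in the first and second panels and all 6 climb in the third, which shows 3.55% to 5% on the regions and 10.6% to 16.5% elsewhere.

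The level of these peaks relative to their library did not separate the hairpins. For each untreated library the median log2 fold on the regions was taken relative to the median over all its peaks. It was 0.37, 0.41, 0.64 and 0.63 in shRNF8 1 to 4, and 0.35 and 0.42 in shScr 1 and 2. Values of shRNF8 3 and 4 lay above those of all other libraries, and the other 4 overlapped. The difference was 0.13 on the log2 scale (0.51 ± 0.14 in shRNF8, SD, n = 4; 0.38 ± 0.05 in shScr, SD, n = 2; exact permutation test, p = 0.267). It was 0.07 without shRNF8 3 and 4, 0.08 without untreated shRNF8 3 and 0.09 without untreated shRNF8 4. Within replicate numbers 1 and 2 (the replicate block) it was 0.00271. The uneven choice of regions between hairpins, given above, limits this comparison too.

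On regions with a peak both with and without RNase, the fold with RNase was more often above the fold without it than below, with many regions on either side. It was higher on 47, 80, 163 and 114 regions in shRNF8 1 to 4 and on 148 and 113 in shScr 1 and 2. It was lower on 31, 68, 115 and 86 regions in shRNF8 1 to 4 and on 91 and 72 in shScr 1 and 2. The median log2 ratio of the treated to the untreated library of the same number was 0.16, 0.05, 0.30 and 0.15 in shRNF8 1 to 4, over 78, 148, 278 and 200 regions, and 0.35 and 0.23 in shScr 1 and 2, over 239 and 185 regions. Each fold is relative to its own library's background, and the rule used the treated fold, so these ratios are a description and no measure of how much signal remained.

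The regions lay elsewhere in the genome than other S9.6 regions. By the position of their summit 52.1% were intergenic, against 13.3% of the 73025 S9.6 regions that touched none of them. Intergenic was judged against single-locus genes of the count table, so other genes may lie in such regions. Introns held 31.9% against 53.9%, gene starts 3.55% against 10.9% and gene ends (1000 bp before to 5000 bp after) 8.73% against 14.5%. Within 5 Mb of a stretch of at least 2 Mb with no single-locus gene of the count table lay 30.6% against 9.78%. Such stretches are found around centromeres and also elsewhere, such as chr4:125507308-127632931. Genes with several loci may lie in them. Within 5 Mb of the first or last gene of a chromosome, and not near such a stretch, lay 42.3% against 20.9%. Chromosome 19 held 93 regions (12.7%), chromosome 17 held 75 (10.2%) and chromosome 18 none. Regions in 1 treated library, just outside the rule, were like the 733 in some of these traits: 43.8% lay near a chromosome end, 5.08% at gene starts, 9.17% at gene ends and 20.1% on chromosome 19. They were intergenic in 38.8% and near a gene-free stretch in 10.6%. These shares compare lists of regions and have no replicate test.

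Regions with and without untreated peaks differed in place. Of the 254 with no untreated peak, 79.5% were intergenic, 54.7% lay near a gene-free stretch and 54 (21.3%) were on chromosome 17. Of the 167 with a peak in all 6 untreated libraries, 17.4% were intergenic, 7.78% lay near a gene-free stretch, 67.1% lay near a chromosome end and 40 (24.0%) were on chromosome 19. Gene ends took 22.8% of the 167 and 1.18% of the 254, and gene starts took 10.2% and 0.787%.

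**Figure D3:**
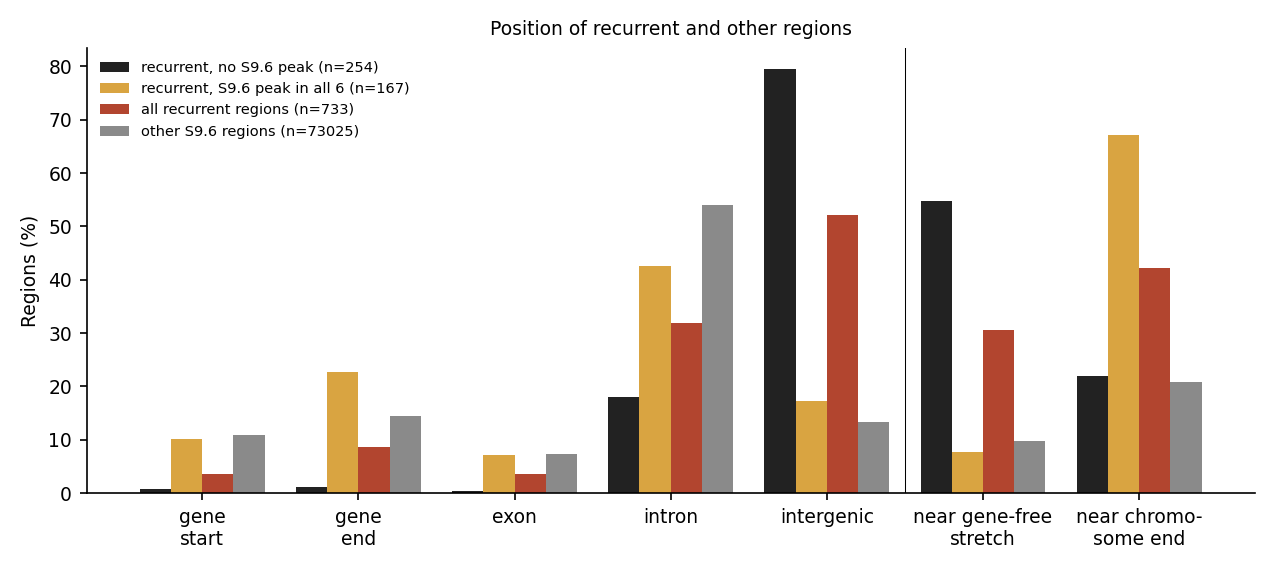
Share of regions (%, y axis) in each position class by summit, and near gene-free stretches or chromosome ends, for the 254 regions with no untreated peak (black), the 167 with an untreated peak in all 6 libraries (yellow), all 733 (red) and the 73025 other S9.6 regions (grey). Black bars are highest for intergenic sequence (79.5%) and near gene-free stretches (54.7%), and yellow bars near chromosome ends (67.1%).

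The regions were clustered along chromosomes. When neighbours within 50 kb were joined, 733 regions formed 245 clusters, of which 41 held at least 5 regions and together 362 regions, and 101 stood alone. Of the 41, every region had an untreated peak in 17 clusters and none had one in 4. Near a gene-free stretch lay 15 of the 41, among them 1 of those 17.

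The largest clusters without genes lay at the gene-free stretch of chromosome 17 (chr17:22524666-27293909, hg38), the first before it and the second inside it. At chr17:21853523-21991159, 35 regions had mean treated folds of 5.41 to 9.63, and 32 of them had no untreated peak. At chr17:26785393-26880103, 23 regions had mean treated folds of 5.85 to 10.1, with 15 of them found in 5 or 6 treated libraries and 21 without an untreated peak. A cluster of 15 regions at chr10:38483253-38529690 and 1 of 11 regions at chr16:34071008-34100004 had no untreated peak at all. At chr11:2041944-2075133, away from any gene-free stretch, 7 regions likewise had no untreated peak, with a median treated fold of 8.34.

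Several clusters over genes had an untreated peak on every region, and others did not. At chr10:133321020-133360973 all 15 regions had one, over CALY, FUOM (a fucose mutarotase) and PRAP1. At chr11:64804138-64837883 all 12 regions had one, over the kinase gene CDC42BPG and the tumour suppressor gene MEN1. At chr7:894898-946243, over ADAP1 and GET4, all 8 regions had one, and at chr21:44394069-44414609, over the ion channel gene TRPM2, all 8 did. Untreated peaks lay on 4 of 9 regions over BFSP2, a filament protein of the lens, on 5 of 7 over ADGRB1, on 6 of 7 over FLJ33534, on 5 of 6 over PRPF31 and TARM1, on 4 of 5 over LMNB2 and TIMM13, and on 3 of 5 over NOL4L and LOC149950.

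The 10 regions found in most treated libraries with the highest folds were all intergenic. Adjoining regions at chr21:10666570-10692727, chr21:10693059-10732340 and chr21:10732546-10740040 led them, 60.3 to 126 kb from the nearest gene, TPTE. The first had 44.9, 28.4, 29.7 and 28.2-fold in shRNF8 1 to 4 with RNase and 34.5 and 41.4-fold in shScr 1 and 2 with RNase. Without RNase it had 11.2, 9.24, 7.43 and 7.05-fold in shRNF8 1 to 4, and 9.58 and 6.63-fold in shScr 1 and 2. Every treated value was above every untreated value there, and the hairpins overlapped in both sets. The third had 29.6 to 34.5-fold in treated shRNF8 and 35.7 and 37.3-fold in treated shScr libraries, against 4.62 to 14.7-fold in untreated shRNF8 and 3.83 and 7.22-fold in untreated shScr libraries.

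Another of the 10 lay beside the ribosomal RNA genes of chromosome 21. The genes of 45S ribosomal RNA stand there in repeated units with spacers between them. The region at chr21:8234223-8234793 begins 14.9 kb past the end of RNA45SN2 in RefSeq (GRCh38.p14), and had 8.67, 11.7, 31.2 and 26.2-fold in treated shRNF8 1 to 4 and 38.6 and 40.5-fold in treated shScr 1 and 2. Without RNase it had 4.92 to 6.12-fold in shRNF8, and 11.6 and 7.67-fold in shScr libraries, so that shScr was above shRNF8 both with and without treatment. A second region, 344 bp past the end of the same gene, also had a peak in all 6 treated and all 6 untreated libraries, and was picked out after its position was seen. Chromosome 21 held 29 of the 733 regions and 10 of the 71 found in all 6 treated libraries.

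Of these 10 regions, the one at chr16:34588009-34588383 had a mean fold of 16.8 with RNase and 19.9 without it. In single libraries its fold was 20.5, 16.8, 15.2 and 14.7 in treated shRNF8 1 to 4 and 19.4 and 14.2 in treated shScr 1 and 2. Without RNase it was 20.6, 30.8, 5.12 and 4.96 in shRNF8 1 to 4, and 39.1 and 18.5 in shScr 1 and 2. The low untreated values were those of shRNF8 3 and 4. The rest of the 10 were chr16:46390419-46391354, chr20:31067189-31069333, chr21:7915743-7927037, chr4:189230186-189232877 and chr4:189235414-189236430. They had mean treated folds of 18.7 to 26.4 and mean untreated folds of 5.92 to 15.9, and in each the treated mean was the higher.

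**Figure D4:**
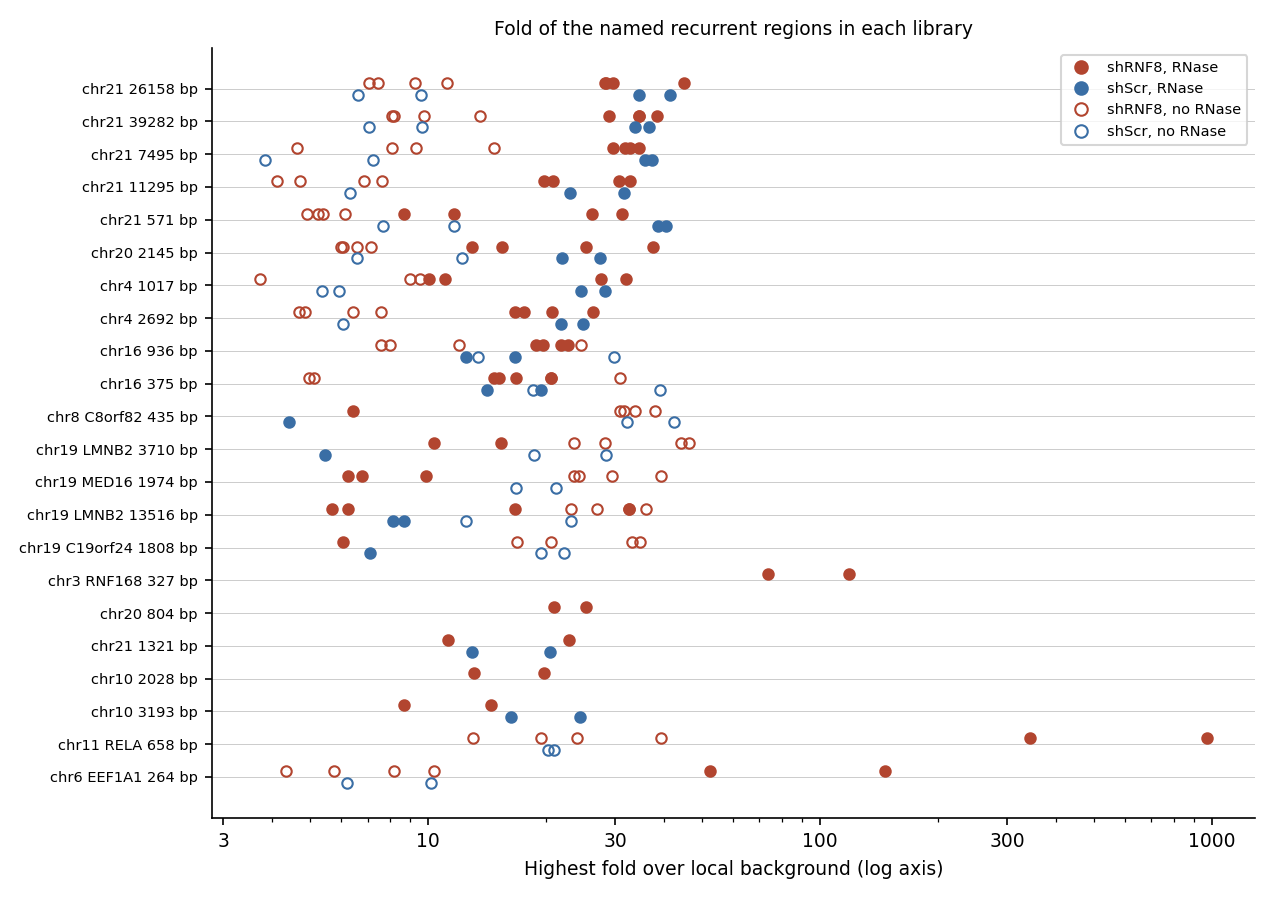
Highest fold over local background (log axis) of 22 named regions in each library, filled with RNase and open without it, shRNF8 red above shScr blue, each row labelled by chromosome, the first overlapping gene and width. In the first 3 rows every treated value is above every untreated value. RELA reaches 344 and 973-fold and the RNF168 region 73.5 and 119-fold in treated shRNF8 3 and 4.

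Regions with the highest untreated folds in all 6 libraries lay over genes. They were chosen for those untreated folds, so a lower fold with RNase is a description. The highest, at the starts of C8orf82 and LRRC24 (chr8:144526383-144526817), had 37.8, 31.6, 30.8 and 33.6-fold in shRNF8 1 to 4 and 42.4 and 32.2-fold in shScr 1 and 2 without RNase. With RNase it had a peak in shRNF8 1 (6.42-fold) and shScr 2 (4.42-fold) and in no other library. Next came an intron of LMNB2, which encodes lamin B2 and hosts MIR7108 (chr19:2433753-2437462), with 18.6 to 46.2-fold without RNase and 5.45 to 15.4-fold in the 3 treated libraries with a peak. MED16, a subunit of Mediator (chr19:880050-882023), had 16.8 to 39.3-fold without RNase and 6.23 to 9.85-fold in 3 treated shRNF8 libraries. A 13516 bp region over TIMM13, TMPRSS9 and LMNB2 (chr19:2419132-2432647) was the one of these 5 found in all 6 treated libraries. It had 5.69, 6.23, 32.6 and 16.7-fold in treated shRNF8 1 to 4 and 8.14 and 8.68-fold in treated shScr 1 and 2, against 36.0, 23.2, 32.6 and 27.0-fold in untreated shRNF8 and 12.5 and 23.1-fold in untreated shScr libraries. The last, C19orf24 (chr19:1279047-1280854), had 16.8 to 34.7-fold without RNase and a mean of 6.58-fold over the 2 treated libraries with a peak, shRNF8 3 and shScr 2.

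Among regions with no untreated peak, RNF168 led. RNF168 is the ubiquitin ligase that acts after RNF8 at DNA double-strand breaks. Its region at chr3:196502861-196503187 had 73.5 and 119-fold in treated shRNF8 3 and 4 and no peak in any other library. The next 4 were intergenic and near gene-free stretches: chr20:31058855-31059658, chr21:10663306-10664626, chr10:41888766-41890793 and chr10:38526498-38529690. Their mean treated folds were 15.9 to 23.1. Of these 5 regions, 3 had peaks in shRNF8 3 and 4 alone, and the other 2 in those libraries and both shScr libraries.

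Folds over 50 occurred on 5 of the 733 regions, in treated shRNF8 3 and 4 alone, and the highest of the other 4 treated libraries was 44.9. Of the 5, 4 lay over RELA, RNF168 (2 regions) and EEF1A1; this threshold was chosen after the values were seen. The fifth, at chr20:31060240-31063236, had 62.7 and 45.7-fold in treated shRNF8 3 and 4 and 15.4 and 12.6-fold in treated shScr 1 and 2. All 5 thus had their high values in the same pair of libraries. RELA, which encodes a subunit of the transcription factor NF-kB, had 344 and 973-fold at chr11:65654366-65655023 in treated shRNF8 3 and 4 and no other treated peak. Untreated peaks of 11911 to 60308 bp covered it in all 6 libraries, with 39.3, 24.0, 19.5 and 13.0-fold in shRNF8 1 to 4, and 20.9 and 20.2-fold in shScr 1 and 2. EEF1A1 (chr6:73520983-73521246) had 52.4 and 146-fold in treated shRNF8 3 and 4, no other treated peak, and untreated folds of 8.19, 10.3, 5.76 and 4.33 in shRNF8 1 to 4 and 10.1 and 6.20 in shScr 1 and 2. RELA and EEF1A1 were the highest of the regions that just met the rule with 2 libraries. The highest that just missed it were chr17:20902096-20902598 (20.4-fold) and chr10:41901537-41901878 (12.3-fold), each in 1 library.

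The treated peaks of RELA ran 21 and 23 bp past the upstream edge of its 3′ exon (65655000) in shRNF8 3 and 4 and began inside the longest annotated form of that exon. A second RNF168 region (chr3:196471811-196472786) had 150 and 369-fold in treated shRNF8 3 and 4, and 9.22-fold in treated shRNF8 1 and 5.62-fold in treated shScr 2, with 1 untreated peak, of 6.31-fold in shRNF8 3. In shRNF8 3 and 4 its peaks ran 14 bp past the upstream edge of the 3′ exon (196472772), while those of the other libraries stayed within the exon. The peaks on the first exon of RNF168 began 12 bp beyond its downstream edge (196502873) in both libraries. At EEF1A1, which encodes translation elongation factor 1A, the peaks covered the 33 bp first exon (73521000 to 73521032), ran 12 and 17 bp into the intron and 212 and 214 bp into the promoter shown above. Exon positions are those of the count table, and the cause of these edges was not tested. Peak lists do not show whether the reads came from these genes in the chromosome or from other DNA of the same sequence, so folds of 52.4 to 973 are given as listed and not as levels of hybrid.

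**Figure D5:**
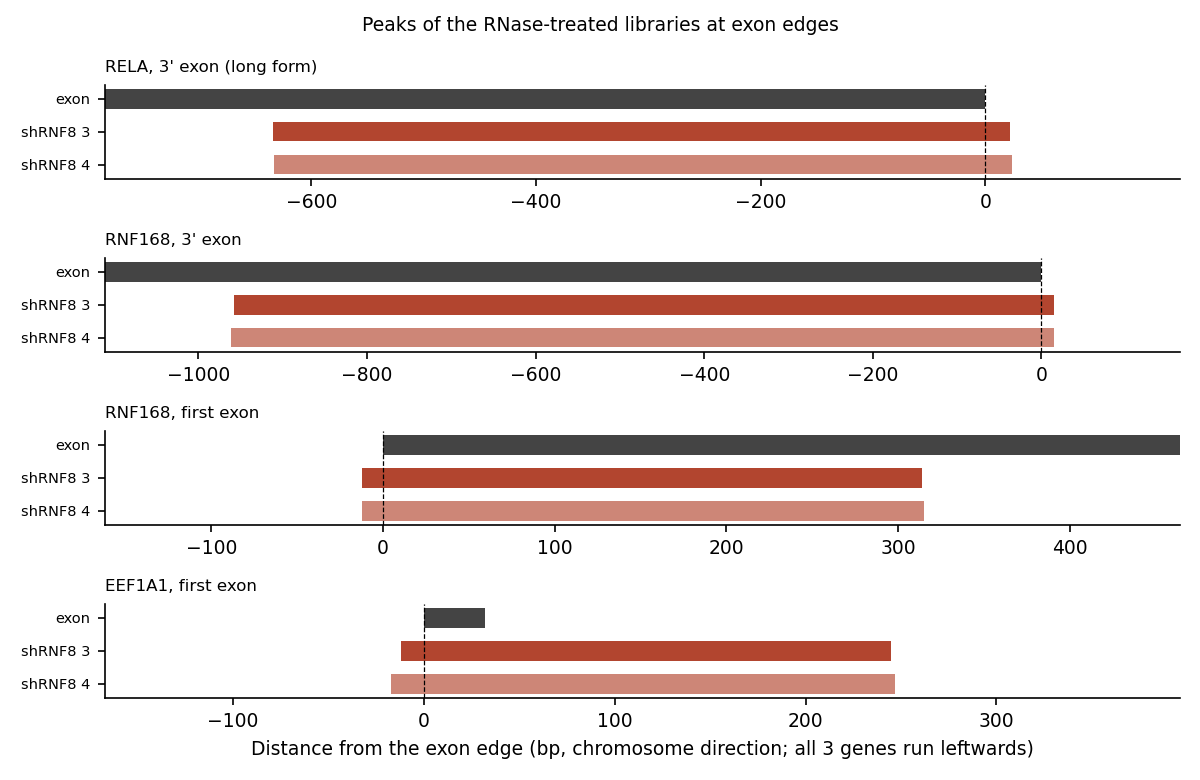
Treated peaks of shRNF8 3 and 4 (red) over 50-fold and the exon they touch (black), by distance from the exon edge in bp. The genes RELA, RNF168 and EEF1A1 all run leftwards. Peaks pass the edge at 0 by 21 and 23 bp at RELA, 14 bp at the 3′ exon of RNF168, 12 bp at its first exon, and 12 and 17 bp at EEF1A1.

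The mRNA of genes under these regions was compared between hairpins in the RNA libraries, which the rule did not use. At least 1 region overlapped 166 genes with a single locus, and 126 of them were tested. CNTNAP2 rose and RAB3B fell, 1 gene in each direction (edgeR quasi-likelihood test, adjusted p under 0.05), against 0.970% of 14018 genes tested that were higher in shRNF8, 1.57% that were lower and 2.54% in either direction. The median log2 fold change was -0.07 over the 126 genes and -0.00478 over all genes tested. CNTNAP2, a cell adhesion protein of the neurexin family, had 153, 132 and 151 counts in shRNF8 and 41, 46 and 37 in shScr libraries, and the groups did not overlap (log2 fold change 1.85 ± 0.20 SE, edgeR adjusted p = 0.00206). Its 3 intronic regions, at chr7:148374533-148383041, had peaks of 4.52 to 8.15-fold in treated shRNF8 3 and 4 and in no other library, treated or not. RAB3B, a GTPase of vesicle release, had 185, 182 and 168 CPM in shRNF8 and 288, 345 and 340 CPM in shScr cells (log2 fold change -0.86 ± 0.10 SE, edgeR adjusted p = 0.00218). The region at its 3′ end (chr1:51905148-51910621) was found in all 12 libraries, with 8.73, 13.2, 24.1 and 11.2-fold in treated shRNF8 1 to 4 and 11.99 and 12.6-fold in treated shScr 1 and 2. Without RNase it had 10.1, 9.58, 5.86 and 8.54-fold in shRNF8 1 to 4, and 8.18 and 11.98-fold in shScr 1 and 2, so that the hairpins overlapped in both sets.

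Genes under the most extreme regions showed no call. RELA mRNA averaged 134 ± 8.79 CPM in shRNF8 and 150 ± 5.58 CPM in shScr cells (SD, n = 3 each; edgeR adjusted p = 0.338). RNF168 averaged 42.6 ± 0.770 CPM in shRNF8 and 47.1 ± 7.42 CPM in shScr cells (SD, n = 3 each; edgeR adjusted p = 0.530). EEF1A1 averaged 15693 ± 1646 CPM in shRNF8 and 16223 ± 723 CPM in shScr cells (SD, n = 3 each; edgeR adjusted p = 0.813). Per kilobase of transcript the 166 genes had median levels of 2.53, 2.63 and 2.31 CPM in shRNF8 and 2.23, 2.85 and 2.54 CPM in shScr libraries. The 13188 genes with an S9.6 region and none of the 733 had 5.96 to 6.22 CPM per kilobase in shRNF8 and 6.10 to 6.37 in shScr libraries. The other 12459 genes with a single locus had a median of 0 in every shRNF8 and shScr library.

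Of all genes with a single locus, 166 of 25813 (0.643%) overlapped the regions, so a count of 0 in a short list is near that share and is no result about the list. None of 27 genes of R-loop enzymes and none of 10 loci often used as positive DRIP controls overlapped them, while 25 and all 10 overlapped an S9.6 region. Among the 27 enzymes SAMHD1, a dNTP hydrolase, was higher in shRNF8 cells (edgeR log2 fold change 0.48 ± 0.10 SE, adjusted p = 0.0267) and none was lower, with a median log2 fold change of 0.12. Over all 14018 genes tested 0.970% were higher and 1.57% lower, with a median of -0.00478, so 1 call among 27 is no result about the list. By symbol, 0 of 355 snoRNA, 0 of 124 ribosomal protein and 0 of 67 histone genes overlapped the regions. Of 566 zinc finger genes ZNF423 did, and of 1790 microRNA genes MIR7108 and MIR7114 did. An S9.6 region overlapped 130 of the snoRNA, 98 of the ribosomal protein and 13 of the histone genes. For comparison, 13188 of the 25813 genes with a single locus overlapped an S9.6 region and none of the recurrent regions. The S9.6 counts of these lists were not tested against that share.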

How the data were processed

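DRIP-seq peak lists of 12 libraries and RNA counts of 6 libraries were used, and 3 inputs were not analysed here. Per the file headers, the authors deposited featureCounts raw counts per gene from read pairs, with no strand option, on an hg38 annotation. Each DRIP-seq library has a peak list of its own, in which the authors gave a fold ratio over local background, -log10 of the p-value and -log10 of the q-value. The submitters' processing notes list Bowtie2 2.2.6, MACS2 2.2.7.1 and Picard 2.10.9, and the build hg38. Peaks on other contigs were left out of the regions.

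Regions were merged and tested in Python 3.11.15 (SciPy 1.17.1). The untreated libraries, not used by the rule, were compared by exact permutation over 15 splits or exact sign flips within 6 libraries, at a threshold of 0.05. Counts were fitted over all genes with edgeR 4.0.16 (filterByExpr, TMM, robust quasi-likelihood test, Benjamini-Hochberg adjustment). CPM are TMM-scaled. Gene positions came from the count table: 25813 of 26485 genes with 1 locus. Scripts were tested on simulated data. Members and gene lists were chosen with earlier results of these data known. Named regions were the 10 in most treated libraries, 5 highest without RNase, 5 highest with no untreated peak, and 2 on each side of the threshold. Replicate numbers did not pair the RNA libraries (correlations -0.05, 0.11 and -0.23). Sequence of regions outside promoters was not analysed here. The alternatives were a rule of 3 libraries, a -log10 q of at least 4, an overlap of 50%, equal list lengths, leaving out each library, a 2000 bp distance, the replicate block, DESeq2 1.42.0, no filter on low counts, and 3 chosen after seeing the data.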

Additional observations from a re-analysis of the deposited data

Results flagged for a closer look

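The share of peaks on recurrent regions was 36.9% in treated shRNF8 3, far below the 88.3% to 89.4% of the other 3 treated shRNF8 libraries. The region at chr21:10666570-10692727 had 44.9-fold in treated shRNF8 1, against 28.2 to 29.7-fold in the other 3. These were the 2 samples that stood far from the rest of their group among 40 groups of 4 examined, and chance marks about 1 group in 20.

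Peaks on contigs outside chromosomes 1 to 22 and X were in no comparison. They made up 26.4%, 16.7%, 5.49% and 14.7% of the treated lists of shRNF8 1 to 4, and 12.03% and 11.5% of those of shScr 1 and 2. In the untreated lists they made up 0.0543% to 0.134%.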

How the results depend on the processing

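The differences between untreated peaks on the regions and the other peaks kept their direction under all alternatives tried. Leaving out 1 library gave 0.22 to 0.24 for log2 fold, 0.45 to 0.59 for log2 width and -9.98 to -8.28 percentage points for gene starts. Fits without 1 treated library kept all 6 untreated libraries (exact sign-flip permutation test, p = 0.03125 each). With 5 untreated libraries the smallest possible p is 0.0625, so fits without 1 untreated library passed no threshold by construction. The same holds without shRNF8 3 and 4, chosen after seeing the data (0.22, 0.38 and -11.3; exact p = 0.125).

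The share of regions with an untreated peak, shRNF8 minus shScr, changed direction in 6 of 18 alternatives. It was -0.41 percentage points for regions in at least 3 treated libraries, -0.54 without shRNF8 3 and 4, and -5.94 to 6.62 when 1 library was left out. The negative values were -0.05 without untreated shRNF8 2, -5.94 without untreated shScr 2, -1.90 without treated shRNF8 3 and -1.66 without treated shRNF8 4. The relative level between hairpins stayed between 0.08 and 0.17 when 1 library was left out, and was 0.07 without shRNF8 3 and 4.

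Of genes under the regions, 2 of 126 were called in the main fit, 8 of 126 with DESeq2, 5 of 154 without a filter on low counts and 4 of 126 with the replicate block. Of genes that start within 1000 bp of a region 0 of 23 were called, too few tested for a result. For regions with an untreated peak (chosen after seeing the data) 1 of 109 was called. Over all genes 356 of 14018 were called, with 852 of 14018 under DESeq2, 648 of 20008 without the filter and 501 of 14018 with the block. Leaving out 1 RNA library gave 2 to 38 genes under the regions and 46 to 3865 over all genes. Without shScr 1 it was 38 of 131 under the regions and 3865 of 14259 over all genes, and 46 to 132 over all genes without any other. CNTNAP2 and RAB3B were called in all 9 refits of the count table. The replicate block gave 0.55 percentage points for the share and 0.00271 for the relative level, from numbers 1 and 2 alone. The causes of these changes were not tested. Peak lists without read depth limit all comparisons of presence: a missing peak does not show that signal was absent.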
